A study of Mus musculus with 15 samples.

Results

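Of the 8216 mouse liver genes with a mean of at least 100 ribosome-protected reads per library, 133 genes (1.62%) met a rule for ribosome binding that peaks around dawn, between CT21 and CT3. Dawn here is subjective dawn: CT is circadian time, the hour of the internal day of a mouse kept in the dark, with CT0 at the former time of lights on and CT12 at the former time of lights off. The members were chosen by the measured values themselves. A cosine with a period of 24 h was fitted to log2(CPM + 0.5) over all 14 libraries, and a gene was kept when the fit explained at least 0.6 of the variance (R2), the fitted peak and trough differed by at least 1 on the log2 scale, no library held more than 30% of the gene's summed CPM, and the fitted peak (the phase) lay in that window. CPM are a gene's counts scaled to the same library total, where totals leave out reads of the Mup genes, the major urinary proteins, which took 42.1% to 70.7% of the counts. Core clock genes named in the rule and the families whose symbols start with Per, Nr1d, Cyp, Gst, Ugt or Slc25 were left out, which removed Arntl, Cry1, Nfil3 and Cyp8b1 and brought 137 genes down to 133. By the same limits 55 genes peaked in the day (CT3 to CT9), 85 around dusk (CT9 to CT15) and 58 in the night (CT15 to CT21).

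The libraries came from whole livers of wild-type C57BL/6N males aged 8-10 weeks, which were held in cycles of light and dark and then moved to constant darkness. From a day after that move, 2 mice were taken every 4 h from CT0 to CT24, which makes 7 times. There was no second genotype or treatment, and each of the 14 libraries is 1 mouse, so that every comparison is between times. Ribosome profiling sequences the stretches of mRNA that ribosomes shield from a nuclease, so that a read count reflects both how much mRNA of a gene there was and how densely ribosomes sat on it, and these cannot be told apart here.

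The liver clock drives daily rhythms through several kinds of promoter element. CLOCK and BMAL1 act on E-boxes, PAR-bZIP factors on D-boxes, and the nuclear receptors ROR and REV-ERB compete for ROR elements (ROREs), where ROR activates and REV-ERB represses. Genes under ROREs are known to peak when REV-ERB is low, late in the night and around dawn, a time at which a nocturnal animal ends its main feeding period and its liver has been making fat and sterols and storing glycogen.

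The libraries held between 17090764 and 35532809 counts without Mup reads. Hepatocyte markers summed to between 83948 and 109032 CPM in every library, and the kidney and skeletal muscle lists stayed at or below 0.170 and 1.52 CPM. CT20 replicate 2 held 8357 CPM of 9 pancreatic acinar markers, against 6.41 to 175 CPM in the others, and 125 of the 133 genes also met the rule without that library (the 8 others were Gask1a, Gfod2, Irf2bp2, Zfp36l1, Fdps, Amt, Gclc and Dhcr7). All nonzero counts of CT16 replicate 2 were even numbers, against 48.9% to 50.4% in the others. With these counts divided by 2, 132 of the 133 genes met the rule. The library's total was halved too, so that CPM stayed the same, and this does not test the even counts.

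Seen as a group, the dawn-peaking genes had a deep, narrow trough at CT12 and a broad high phase from CT20 through CT4. The median over the 133 genes of log2(CPM + 0.5) minus the gene's own mean was 0.61 at CT0 and 0.39 at CT4. It was -0.40 at CT8, reached -0.96 at CT12, and was -0.29 at CT16, before it stood at 0.26 for CT20 and 0.40 for CT24. The lowest time was CT12 for 117 genes, CT8 for 9 and CT16 for 7. The highest time was CT0 for 72 genes, CT4 for 31, CT24 for 17, CT20 for 12 and CT16 for 1. Between neighbouring times the largest median step was -0.84 from CT4 to CT8 (only 2 of the 133 genes were higher at CT8), and the largest upward step was 0.71 from CT12 to CT16 (126 of 133 higher at CT16). In each of the 133 genes the 4 libraries of CT0 and CT24 lay above the 2 libraries of CT12. Since these values chose the genes, they are a description and no test is given for them.

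**Figure D1:**
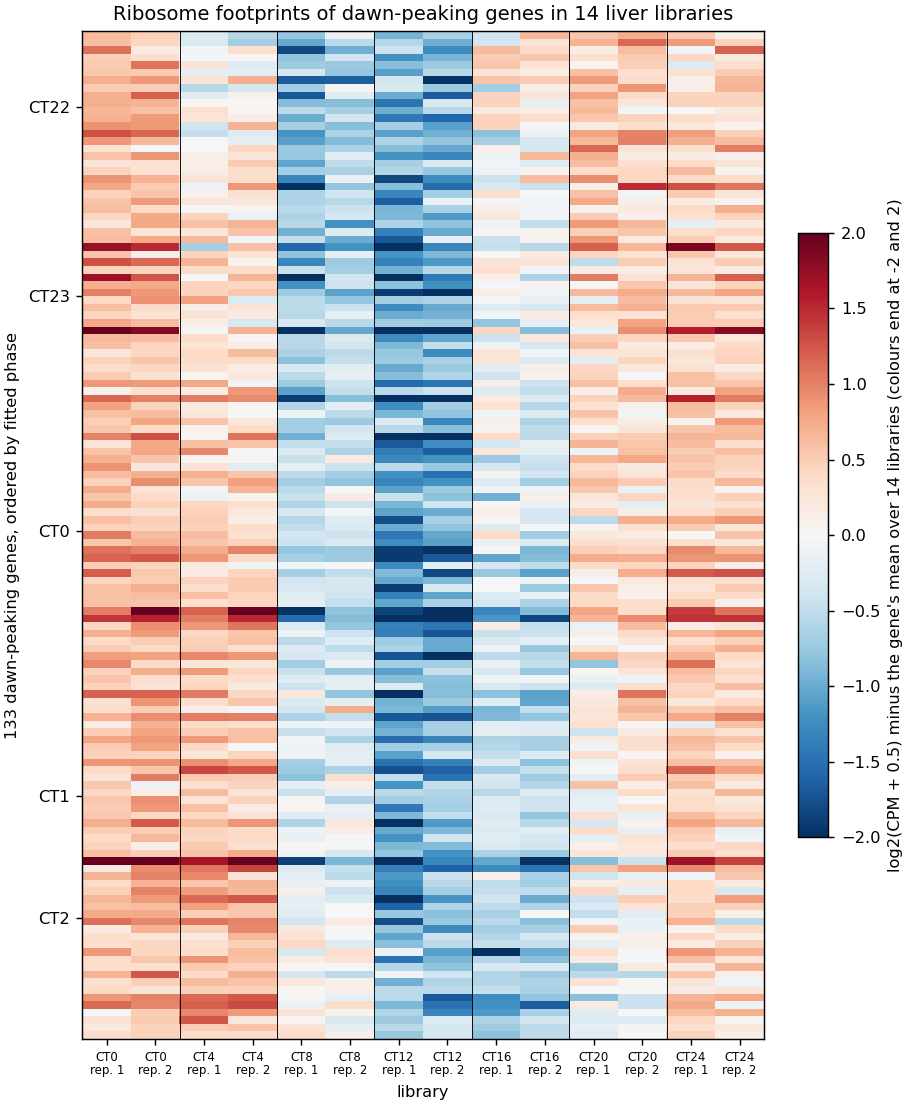
Each row is 1 of the 133 dawn-peaking genes, ordered by fitted phase from CT21 at the top to CT3 at the bottom, and each column is 1 of the 14 libraries. Colour is log2(CPM + 0.5) minus the gene's mean over the libraries, red above and blue below; the CT12 columns are the bluest, and the upper rows are already blue at CT8 while the lower rows are still blue at CT16.

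The phases had a median of 0.055 h after CT0, with 35 genes between CT21 and CT23, 66 between CT23 and CT1 and 32 between CT1 and CT3. The standard error of a single phase from the fit had a median of 0.668 h and ranged from 0.271 to 1.04 h, so that genes whose phases lie within an hour of each other are mostly not separated. When each replicate series of 7 libraries was fitted alone, the 2 phases of a gene differed by a median of 0.802 h, and by under 2 h in 117 genes. The widest difference, 3.97 h, was that of Serpinh1, a collagen chaperone. The split by phase fixes where the early and late genes are low, and their values are given only to show the shape. In the 35 early genes the median over genes was already -0.81 and -0.63 in the 2 libraries of CT8 and had returned to 0.10 and 0.06 at CT16, whereas in the 32 late genes it was -0.05 and -0.04 at CT8 and still -0.56 and -0.63 at CT16.

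The fitted peak-to-trough difference had a median of 1.39 (log2). The rule asks for at least 1, so that this median is not compared with that of all genes. It was between 1 and 1.5 in 80 genes, between 1.5 and 2 in 26, and 2 or more in 27, of which 6 reached 3. The members covered a wide range of levels. Mean CPM was under 10 in 40 genes, between 10 and 100 in 66 and 100 or more in 27. Per kilobase of coding sequence, the highest mean densities (CDS reads per kilobase, on the CPM scale) were those of Elovl3 at 475, Bhmt at 456 and Cth at 391. The median density over the members was 16.5, beside 11.7 over all genes tested. It was 9.30 in day, 12.8 in dusk and 34.0 in night genes.

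With the pseudocount of 0.5, the widest swing was that of Loxl4, which encodes a lysyl oxidase-like enzyme that cross-links extracellular matrix (chr19:42592279-42612806 on GRCm38.p6, minus strand, transcript of 15 exons). Loxl4 stood at 25.8 and 21.4 CPM in the 2 mice of CT0, 13.4 and 17.2 at CT4, 0.706 and 1.81 at CT8, 0 and 1.26 at CT12, 1.65 and 0.501 at CT16, 1.93 and 2.75 at CT20, and 13.7 and 10.7 at CT24. The 6 libraries of CT0, CT4 and CT24 were all above the other 8, and no library from CT8 through CT20 exceeded 2.75 CPM. Its fitted peak-to-trough difference was 4.57 with a phase of CT1.32 ± 0.53 (SE, n = 14 libraries). Slc34a2, a sodium-dependent phosphate carrier (chr5:53049353-53071664, plus strand), came next at 4.11. Slc34a2 stood at 15.0 and 9.82 CPM at CT0, 2.35 and 4.21 at CT4, 0 and 0.926 at CT8, 0 and 0 at CT12, 3.37 and 1.102 at CT16, 2.11 and 5.04 at CT20, and 8.10 and 9.82 at CT24. With both CT12 libraries at 0, the mean of 10.7 CPM at CT0 and CT24 was at least 99.2-fold higher than the level that 3 reads in each CT12 library would give. Both genes are low in reads, and their size follows the pseudocount: with 0.1 in place of 0.5 it was 5.60 for Loxl4 and 6.04 for Slc34a2, and with 2 it was 3.26 and 2.47, both below the 3.95 of Elovl3.

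Elovl3, an elongase of very long-chain fatty acids (chr19:46131899-46135694, plus strand), combined a swing of 3.98 with one of the highest levels. Elovl3 stood at 719.7 and 791 CPM at CT0, 544 and 760.0 at CT4, 91.9 and 147 at CT8, 48.2 and 59.2 at CT12, 119 and 75.01 at CT16, 429.5 and 518 at CT20, and 732 and 726 at CT24. Between CT4 and CT8 both mice of the later time were far below both of the earlier time, and the level was back above 400 by CT20. Its R2 of 0.96 was among the highest of the members. Aqp8, a water channel of bile canaliculi and mitochondria, had an equally close fit at lower size, 2.80. Aqp8 stood at 138 and 145 CPM at CT0, 113 and 80.0 at CT4, 38.2 and 36.4 at CT8, 15.9 and 18.8 at CT12, 29.2 and 33.5 at CT16, 103 and 102 at CT20, and 114 and 115 at CT24.

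Other genes with wide swings encode signalling proteins and regulators. Grk5, a kinase that shuts off G protein-coupled receptors, was between 5.11 and 17.2 CPM in the 8 libraries of CT20, CT24, CT0 and CT4 and between 0.0436 and 2.01 in the 6 libraries of CT8 to CT16 (size 3.91). Ppard, the nuclear receptor PPAR delta, which senses fatty acids, stood at 13.9 and 11.8 CPM at CT0, 15.4 and 9.70 at CT24, and 0.0281 and 1.22 at CT12 (size 3.66). Cdkn1a, the p53 target p21 that holds back cyclin-dependent kinases, stood at 16.1 and 11.6 CPM at CT0 and 0.535 and 1.40 at CT12 (size 2.97). With a pseudocount of 0.1 the sizes of Grk5, Ppard and Cdkn1a were 4.82, 4.51 and 3.42, and with 2 they were 2.68, 2.54 and 2.13. The 2 replicate series of Cdkn1a placed the peak at CT21.96 and CT0.57, within the sampling step of 4 h. Tubb2a, a beta-tubulin, was between 127 and 194 CPM at CT0, CT4 and CT24 and between 9.25 and 36.2 at CT8 and CT12 (size 3.34). Beta-tubulin genes are close copies of each other, and only reads with a single place in the genome were kept, so that its level leaves out reads that fit several copies.

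Chka, the choline kinase that opens phosphatidylcholine synthesis, stood at 64.5 and 60.8 CPM at CT0 and 7.77 and 6.93 at CT12 (size 2.63). Rnf125, a ubiquitin ligase, and Clpx, the unfoldase of the mitochondrial ClpXP protease, peaked later, with 133 and 161 CPM and with 296 and 294 CPM at CT4. At CT12 Rnf125 stood at 24.1 and 20.3 CPM and Clpx at 44.8 and 43.0. Spon2, a secreted matrix protein, was the latest of the 15 widest with a phase of CT2.72. Lrfn3, a neuronal adhesion protein, Lgalsl, a galectin-related protein, and Pdk4, the kinase that closes pyruvate dehydrogenase, completed these 15 with sizes between 2.48 and 2.53, all at mean levels below 10 CPM. With a pseudocount of 2 the sizes were 1.92 for Lrfn3, 1.75 for Lgalsl and 1.75 for Pdk4, and that of Spon2 was 2.06. Pdk4 was highest in CT20 replicate 2, the library with pancreatic markers, at 11.7 CPM against 4.21 in the other mouse of that time. The part of that library's other RNA in this value was not tested.

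**Figure D2:**
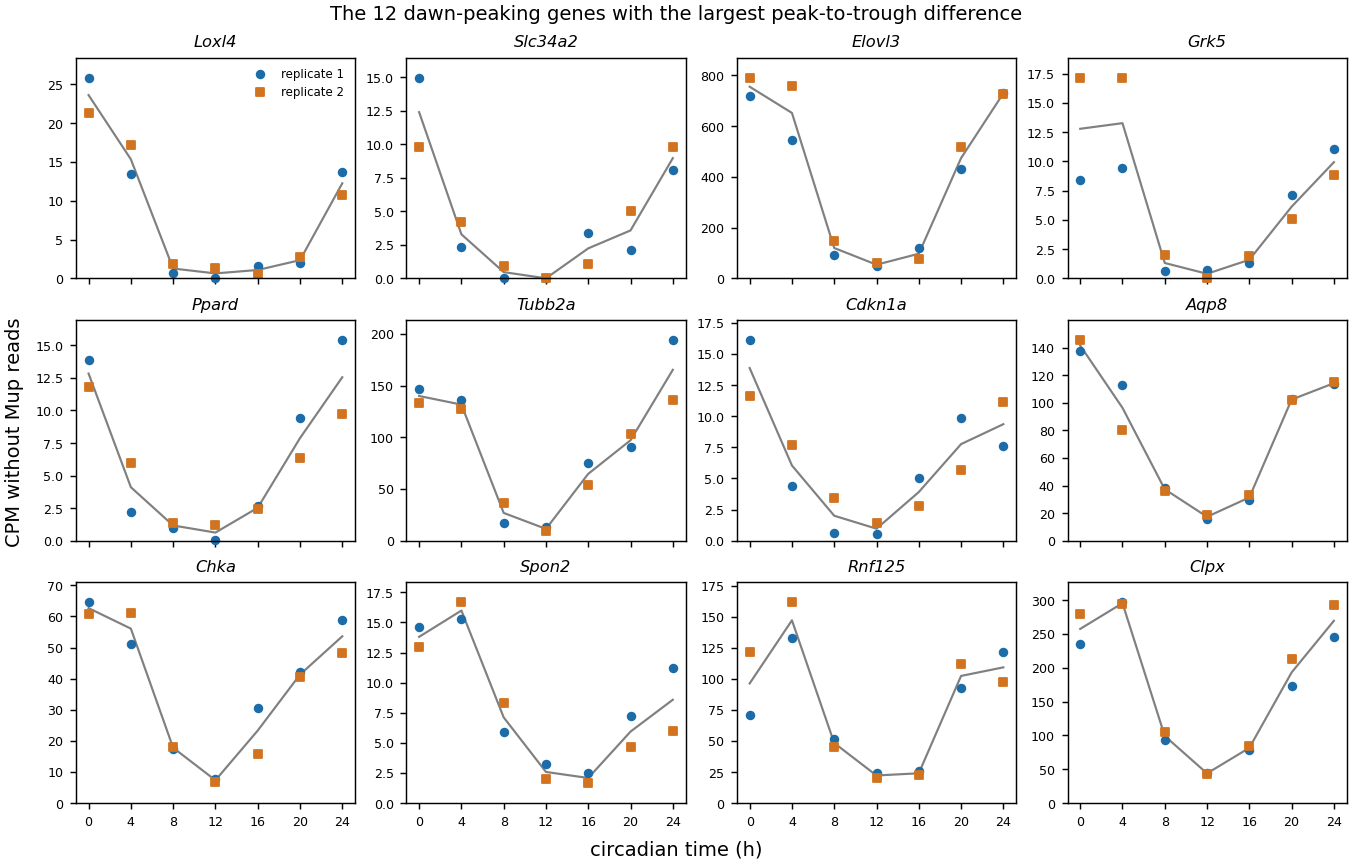
CPM without Mup reads against circadian time (h) for the 12 dawn-peaking genes with the largest fitted peak-to-trough difference. Circles and squares are the 2 replicates of each time and the line joins their means; in each panel the CT12 points are at or near the bottom, and axes start at 0 and differ between panels.

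The members among genes of fatty acid synthesis and storage had fitted phases spread over the dawn window, to which the rule confined them. Of 29 genes tested on a list of fatty acid, triglyceride and SREBP1 genes, 6 were members, and 6 more met the limits in another window. Over all genes tested, 1.62% were members. The median peak-to-trough difference was 0.83 over the list and 0.36 over all genes tested, which is a description, since the lists were chosen with earlier results known. Acly, which makes cytosolic acetyl-CoA from citrate, was the earliest member of the list at CT21.16 ± 0.47 (SE). Acly stood at 571 and 509 CPM at CT0, 310.0 and 235 at CT4, 185 and 258 at CT8, 253 and 191 at CT12, 292 and 454 at CT16, 609 and 836 at CT20, and 684 and 517 at CT24. The 6 libraries of CT20, CT24 and CT0 were above the other 8, and the level was low already at CT4. Acacb, the mitochondrial acetyl-CoA carboxylase whose product restrains fatty acid oxidation, followed the same course at CT22.29 ± 0.39, with 149 and 191 CPM at CT20 and 44.3 and 51.9 at CT8. Agpat2, which adds the second acyl chain on the way to triglyceride, had a phase of CT22.17 ± 0.83.

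The later members of the list were Elovl3 at CT0.41, Elovl5, an elongase of polyunsaturated fatty acids, at CT0.85 ± 0.46, and Plin2, the coat protein of lipid droplets, at CT2.09 ± 0.74. Elovl5 stood at 301 and 371 CPM at CT0 and 131 and 136 at CT12. Plin2 was highest in CT4 replicate 2 at 509 CPM and lowest at CT12 with 154 and 241. It did not meet the rule when libraries were scaled by edgeR's TMM. Other genes of the list peaked earlier, in the night window: Fasn, fatty acid synthase, at CT19.66, Elovl6 at CT16.78 and Thrsp at CT17.30, while the lipid phosphatase Lpin2 peaked at CT12.40. Outside this list, Acss2, which activates acetate, had a phase of CT23.07, Crat, which moves acetyl groups onto carnitine, CT21.48, and Hacl1, a peroxisomal lyase of 2-hydroxy and branched fatty acids, CT23.03. Hacl1 was one of the most abundant members and stood at 653 and 693 CPM at CT20, 638 and 550.2 at CT0 and 175 and 209.9 at CT12.

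Of 20 genes of cholesterol synthesis and uptake, 6 were members, beside 1.62% of all genes tested. This list too was chosen with earlier results known. Pmvk, phosphomevalonate kinase, had the widest swing of the synthesis enzymes, 2.22. Pmvk stood at 41.8 and 38.9 CPM at CT0, 12.1 and 14.2 at CT4, 7.28 and 10.8 at CT8, 7.77 and 8.55 at CT12, 9.46 and 15.7 at CT16, 30.3 and 34.3 at CT20, and 31.0 and 23.8 at CT24. The 6 libraries of CT20, CT24 and CT0 were all above the other 8. Lss, which closes the sterol ring system, had a phase of CT21.10 ± 0.73, Fdps, which makes farnesyl diphosphate, CT21.64 ± 0.96, Dhcr7, the enzyme of the last step, CT23.84 ± 1.00, and Hmgcs1, which makes HMG-CoA, CT0.76 ± 0.99. Their R2 were 0.72, 0.62, 0.63 and 0.63, all below the members' median of 0.788. Hmgcs1 stood at 81.5 CPM in one mouse of CT8 and at 176, its highest value, in the other. Lss, Hmgcs1, Fdps and Dhcr7 fell outside the rule when libraries were scaled by edgeR's TMM.

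Insig2, which holds the SREBP activator in the endoplasmic reticulum, was the sixth and the latest of them, at CT1.58 ± 0.62. Insig2 stood at 143 and 163 CPM at CT0, 198 and 213 at CT4, 79.3 and 73.3 at CT8, 20.99 and 39.7 at CT12, 68.2 and 45.0 at CT16, 67.4 and 127 at CT20, and 115 and 161 at CT24. It was highest at CT4, a time at which Pmvk, Lss and Fdps were already low. Its paralogue Insig1 had a phase of CT19.79 and met the limits in the night window, as did Mvd at CT19.87. Among the genes of the list, 11 met the limits in no window, Sqle and Srebf2 among them. The cholesterol list's median peak-to-trough difference was 1.08.

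**Figure D3:**
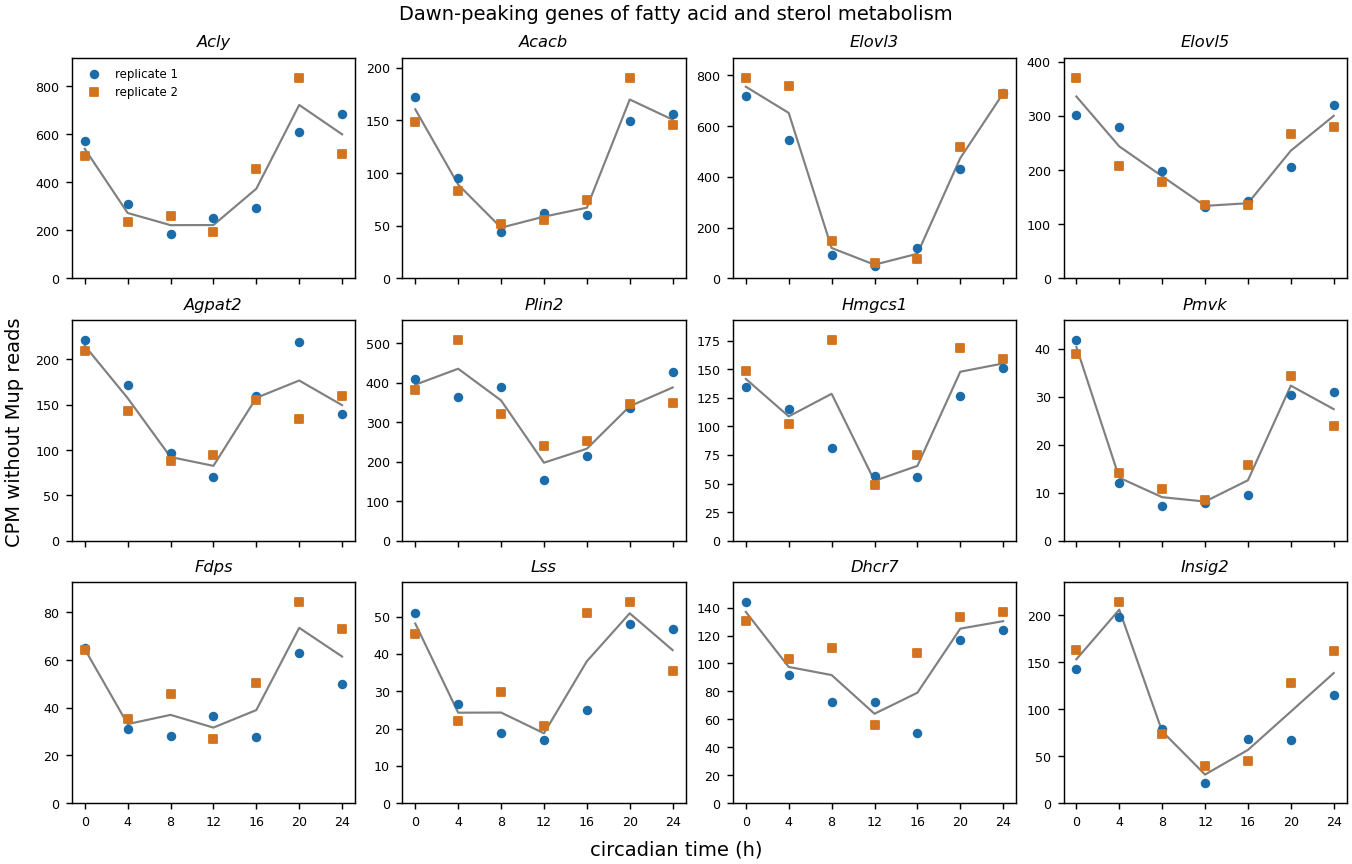
CPM without Mup reads against circadian time (h) for the members on the lists of fatty acid and sterol genes, with circles and squares for the 2 replicates and a line through their means. Acly, Acacb, Pmvk, Fdps and Lss are high from CT20 to CT0 and low by CT4, whereas Elovl3 and Insig2 are still high at CT4.

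A list compiled around ROR and REV-ERB also holds genes known as E-box targets, such as Dbp and Nampt. Of its 16 tested genes, 4 were members (Elovl3, Insig2, Avpr1a and Cdkn1a) and 8 met the limits in another window. Over all genes tested, 1.62% were members, and the list was chosen with earlier results known. Avpr1a, the liver receptor for vasopressin, stood at 41.3 and 45.5 CPM at CT0, 39.9 and 43.3 at CT24, and 9.29 and 7.15 at CT12, with a phase of CT0.46 ± 0.45. Nampt had a phase of CT15.52 and Dbp of CT11.50, and genes of the list met the limits in all 4 windows. G6pc and E2f8 had fitted phases of CT21.72 and CT20.62 but an R2 below the limit, 0.47 and 0.44.

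Promoter sequence was looked at as a description, since the rule itself chose members with a shared phase. RefSeq promoters on GRCm38 (250 bases before to 50 after the start of a gene) were at hand for 106 of the 133 members, or 79.7%, which is under the 80% set for comparing shares. Shares are therefore printed without a comparison. A RORE-like match (ANTAGGTCA, TNTAGGTCA, ANTGGGTCA or TNTGGGTCA, either strand) was in 5 member promoters (4.72%) and in 2.12% of 6616 promoters of all genes tested. It was in 2 of 42 day promoters (4.76%), 1 of 70 dusk promoters (1.43%) and 0 of 45 night promoters. The E-box CACGTG was in 11 (10.4%) and in 10.8%, the SREBP letters TCACNCCAC in 3 (2.83%) and in 1.21%, the D-box TTANGTAA in 2 (1.89%) and in 1.54%, and the CRE TGACGTCA in 2 (1.89%) and in 3.26%. In day, dusk and night promoters the E-box share was 7.14%, 17.1% and 15.6%. A match is only a match of letters. The SREBP letters were matched in Hmgcs1, Camk1d and Wdr91, and not every matched window is shown. The windows shown are those of the 5 genes with a RORE-like match, since ROREs are the element known for this phase. Those of lipid, glycogen, water channel and tubulin genes described here are shown too, picked by role. Each is read along the gene's strand from GRCm38.p6, with the matched letters in capitals.
Slc45a3, RORE-like, chr1:131970481-131970509, plus strand: actaagggtcAGTAGGTCAagttacaaac
Ddc, RORE-like, chr11:11898134-11898162, minus strand: aggacaaagaAATGGGTCAgttcaaagca
Bhmt, RORE-like, chr13:93637977-93638005, minus strand: ttgtgccagaTGTAGGTCAtgcagtttac
Bhmt, RORE-like, chr13:93637842-93637870, minus strand: tggcagcttaAGTGGGTCAtggatacctg
Leo1, RORE-like, chr9:75441449-75441477, plus strand: gctggagaaaACTAGGTCAcaaaagtaaa
Dpp9, RORE-like, chr17:56219090-56219118, minus strand: agatatttttAATAGGTCActgcagggtc
Hmgcs1, SREBP, chr13:119690204-119690232, plus strand: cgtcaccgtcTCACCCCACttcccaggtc
Ppp1r3c, E-box, chr19:36736693-36736718, minus strand: gggaccggttCACGTGatctggcttt
Plin2, E-box, chr4:86670048-86670073, minus strand: gctgggctatCACGTGgctcggaggc
Aqp8, E-box, chr7:123462209-123462234, plus strand: tcattgatccCACGTGgcccttgccc
Elovl5, E-box, chr9:77917194-77917219, plus strand: tgccccgagaCACGTGaaccacagga
Elovl5, CRE, chr9:77917358-77917385, plus strand: cgcgccattgTGACGTCAcggtcagccc
Tubb2a, CRE, chr13:34078050-34078077, minus strand: tctgcccccaTGACGTCAgcgggactgg

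The genes with these windows do not share one course. Slc45a3, a sugar and proton carrier, had its match 118 bases before the start and peaked at CT21.55 ± 0.83, with 14.2 and 13.5 CPM already at CT16 and 2.61 and 2.66 at CT8. Ddc, aromatic amino acid decarboxylase, had its match across the start and peaked at CT22.83 ± 0.70. Bhmt had matches 237 and 102 bases before the start and peaked at CT0.97 ± 0.67. Leo1, a subunit of the PAF1 transcription elongation complex, peaked at CT22.91 and Dpp9, a dipeptidyl peptidase, at CT0.86. Insig2, Avpr1a and Cdkn1a, members of the RORE list, had no RORE-like match in the promoters at hand, which says only that these letters are not in those windows.

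Of 21 genes of glucose and glycogen metabolism, Ppp1r3c was the 1 member, and 7 others met the limits in another window, such as Gys2, liver glycogen synthase, at CT13.76 and Ppp1r3b at CT19.95. Ppp1r3c targets protein phosphatase 1 to glycogen. Ppp1r3c stood at 99.1 and 61.8 CPM at CT0, 100.1 and 104 at CT24, and 22.7 and 11.6 at CT12, with a phase of CT0.19 ± 0.44. Coq8a, which serves coenzyme Q synthesis in mitochondria, stood at 526 and 555 CPM at CT0, 547 and 464 at CT4, and 105 and 120.5 at CT12 (size 2.04).

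Enzymes of amino acids, sulphur, folate and nucleosides were 11 in number, with a median phase of CT0.52 and with the most abundant member, Bhmt. On a list of amino acid and one-carbon genes, 2 of 29 tested were members. Bhmt, which remethylates homocysteine with betaine, stood at 733 and 604 CPM at CT0, 852 and 656 at CT4, 401 and 481 at CT8, 376 and 359.9 at CT12, 370.4 and 455 at CT16, 471 and 719 at CT20, and 669 and 868 at CT24. Cth, which makes cysteine from cystathionine, stood at 626 and 553 CPM at CT0 and 369 and 252 at CT12. Their sizes, 1.05 and 1.04, were just inside the limit. Gclc, the rate-limiting enzyme of glutathione synthesis, peaked late at CT2.90 ± 0.38, with 259 and 271 CPM at CT4 and 111 and 128 at CT16. The glycine cleavage system had 2 members, Gldc at CT0.19 and Amt at CT2.995, both of them mitochondrial. Fpgs, which adds glutamate chains to folate, was at CT0.26 and the sulphur dioxygenase Ethe1 at CT0.64.

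Retinoid genes, a role given after the members were known, were 3. Stra6l, a membrane receptor for retinol-binding protein, had one of the tightest fits, R2 0.93, at CT2.55 ± 0.33. It stood at 164 and 148 CPM at CT0, 173 and 173 at CT4, and 84.8 and 85.3 at CT12. Stra6l did not meet the rule under TMM scaling. Dhrs3, which reduces retinal, was at CT1.51 ± 0.51, and Rdh11, a retinol dehydrogenase, at CT23.71 ± 0.65.

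Among channels and transporters (8 members, sizes from 1.08 to 4.11), Slc30a10, a manganese exporter, was the 1 member among 28 tested plasma membrane transporters on a list. Slc30a10 stood at 51.2 and 51.8 CPM at CT0, 52.3 and 46.9 at CT4, and 9.43 and 10.5 at CT12. The set also held Slc13a2, a citrate carrier, at CT23.01 and Slc17a8, a vesicular glutamate carrier, at CT22.84, both below 10 CPM on average. Leap2, a liver peptide that blocks the ghrelin receptor, was the 1 member of 33 tested secreted and acute phase genes. Leap2 stood at 111 and 84.0 CPM at CT0, 54.4 and 80.8 at CT24, and 19.7 and 26.5 at CT12. No member came from the lists of heat shock proteins and chaperones (27 tested), insulin and growth hormone signalling (25 tested) or ribosome biogenesis and translation factors (24 tested), although 4 and 2 genes of the first and the last of these met the limits in other windows. At the 1.62% of all genes tested that met the rule, lists of this size would hold under 1 member.

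Genes of junctions, adhesion and matrix, a role given after the members were known, were 9 with a median size of 1.95, Loxl4, Spon2 and Serpinh1 among them. Cldn1, claudin-1, stood at 98.2 and 95.8 CPM at CT0, 106 and 100.1 at CT4, 43.7 and 44.6 at CT8, 16.1 and 10.7 at CT12, 37.7 and 36.9 at CT16, 87.3 and 76.3 at CT20, and 88.0 and 71.6 at CT24. The 8 libraries from CT20 to CT4 lay between 71.6 and 106 CPM, and the 2 of CT12 far below all others. Tjp3, the junction scaffold ZO-3, had a phase of CT23.40, Itga5, the fibronectin receptor subunit, CT23.45, and Nectin1 CT23.49. Cytoskeletal and small GTPase genes (14 members) ran from Palld at CT21.34 to Syne1 at CT2.78, and the alpha-tubulin Tuba4a at CT0.67 was the most abundant with 325 and 276 CPM at CT0 and 122 and 125 at CT12.

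Of 18 tested cell cycle and p53 genes, Cdkn1a and Btg1 were members. Btg1, an antiproliferative gene, stood at 18.9 and 28.3 CPM at CT0 and 7.60 and 8.94 at CT12. Other growth and stress regulators in the set were Ddit4, an inhibitor of mTORC1, at CT21.28 and Ndrg1, a stress gene, at CT2.68, so that these members lay at both edges of the window. Of 25 nuclear receptors and coregulators on a list, Ppard was the 1 member. Transcription and RNA genes (18 members) had 7 phases before CT23, 9 between CT23 and CT1 and 2 after. Sox9, a transcription factor that marks bile duct cells, stood at 14.5 and 9.46 CPM at CT0, 15.9 and 8.75 at CT24, and 4.22 and 4.23 at CT12. Fewer cells of a type and less RNA per cell cannot be told apart in whole liver. The 6 markers of bile duct cells, with Sox9 among them, summed to 38.4 to 61.4 CPM at CT0, 34.5 to 40.5 at CT12 and 26.1 to 27.7 at CT16, and the lists of 6 endothelial, 7 stellate and 7 macrophage markers had their highest library at CT0 too. Endothelial markers summed to 350 to 404 CPM at CT0, 324 to 336 at CT12 and 251 to 265 at CT16, and stellate markers to 258 to 331, 213 to 219 and 148 to 180.0. Macrophage markers summed to 313 to 387 CPM at CT0, 296 to 323 at CT12 and 203 and 303 in the mice of CT16. The part of these cells in the members' rhythms was not tested.

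**Figure D4:**
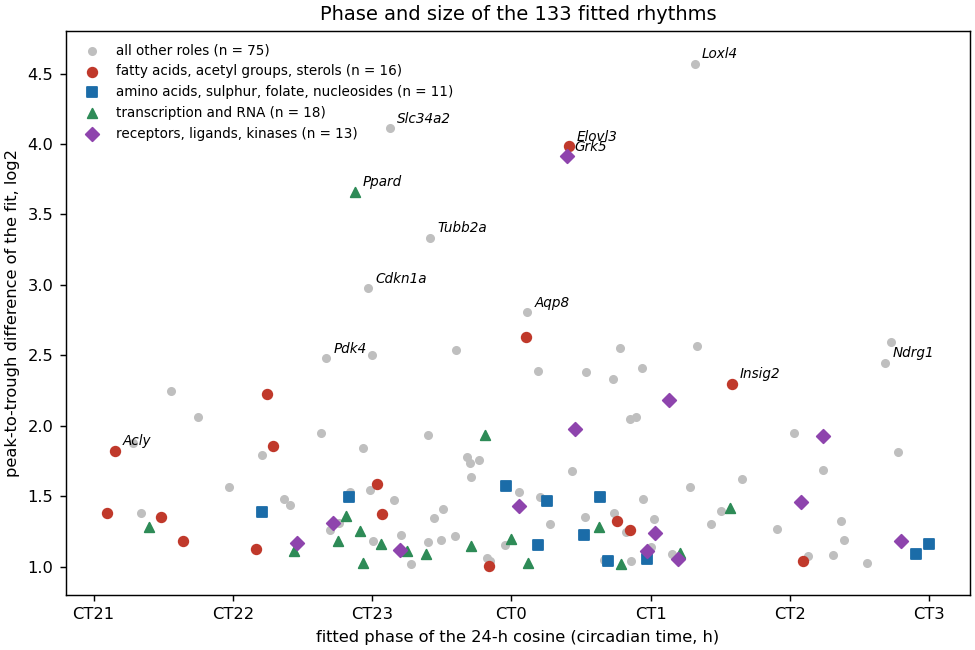
Fitted phase (circadian time, h) against fitted peak-to-trough difference (log2) for the 133 dawn-peaking genes, coloured by role, with the roles given after the members were known. Both axes are values the rule used. Fatty acid and sterol genes (red circles) lie mostly left of CT0, from Lss and Acly near CT21 onward, and 2 of the 11 amino acid, sulphur, folate and nucleoside genes (blue squares) lie close to CT3.

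Reads of most members lay in the coding sequence, with a median of 94.0% of reads, and over 90% in 80 genes. In 5 members under 50% of the reads were there. In Tmie, Pnrc2, Atf5 and Mfsd4b3 most of the others lay in the 5′UTR, which took 90.2%, 87.0%, 63.0% and 52.0% of reads, and in Rfxank 40.0% lay in the 3′UTR. Atf5, a stress-responsive transcription factor whose translation is held back by upstream reading frames, had 4 uORFs (an ATG with an in-frame stop inside the 5′UTR) in its annotated transcript. Its 5′UTR reads alone gave a phase of CT1.54 and its coding reads CT1.69. In Abi3, an actin regulator, 45.4% of reads lay in the 3′UTR and gave a phase of CT1.54 with a size of 2.56, whereas its coding reads, 83.9 per library on average, gave CT5.99, a size of 0.48 and an R2 of 0.20. In Tmie the rhythm was one of 5′UTR reads: coding reads alone, 21.2 per library on average, gave an R2 of 0.38. When coding reads alone were used, 116 of the 133 genes met the rule.

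A uORF was present in 45 of the 113 members with a 5′UTR sequence (39.8%), beside 36.9% of 6480 genes tested, 52.4% of 42 day genes, 44.3% of 70 dusk genes and 31.0% of 42 night genes. The 5′UTR of the members had a median length of 181 bases, beside 141 over all genes tested. It was 173 in day, 220 in dusk and 120 in night genes. Their coding sequence had a median of 1273 bases, beside 1374.5 over all genes tested. It was 1572 in day, 1521 in dusk and 1239.5 in night genes. These shares and medians are given as a description.

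Whether ribosomes shift between 5′UTR and coding sequence over the day was tested on the ratio of their reads, which the rule did not use directly, although its counts sum both regions. In the 93 members with a mean of at least 10 reads in each region, limma called no 24-h rhythm of the log2 ratio at an adjusted p under 0.05 (0 of 93), and it called none among all 4732 genes tested (0% called). At an unadjusted p under 0.05 there were 3 members, beside 4.92% of all genes tested. These 3 were Spon2, Eps8l2 and Ppard, each with an adjusted p = 0.797 by limma. As a description, 5′UTR reads alone put 80 of these 93 genes in the dawn window, with a median distance of 0.898 h from the phase of coding reads and a median size of 1.26 against 1.35.

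CT24 was also compared with CT0. The sample titles put these a full cycle apart and name the later samples CT24, whereas their time label reads CT00, the same as that of the first samples, and the titles were followed. The fitted 24-h cosine has the same value at both times, so that a gap between them counts as unexplained variance. The limit on R2 therefore removed genes with large gaps before this comparison, and without both CT24 libraries 180 genes met the rule, 126 of them among the 133. The members' counts are given as a description and nothing is read from them. By edgeR's quasi-likelihood test, 0 of 133 members differed at an adjusted p under 0.05 and 0 of 8216 genes did (0% called). At an unadjusted p under 0.05 there were 6 members, Zfp36l1, Asap2, Agpat2, Atf5, Insc and Cdcp1, beside 5.89% of all genes tested, and DESeq2 called 4 genes, none of them a member. The log2 difference CT24 minus CT0 had a median of -0.11 over the members, beside 0.00 over all genes tested, and 89 of 133 members were lower at CT24, beside 4070 of 8216 genes. Loxl4 had the lowest value, -0.88 ± 0.63 (SE), with adjusted p = 0.874 by edgeR, and Gfod2 the highest, 0.70 ± 0.37, with adjusted p = 0.844 by edgeR. In Loxl4 both mice of CT24, at 13.7 and 10.7 CPM, lay below both of CT0, at 25.8 and 21.4, a gap that did not pass the test with 2 mice at each time.

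Whether the curves depart from a plain cosine was tested as a 12-h component added to the 24-h one. The values tested are those that chose the members, so that their counts cannot be read against those of all genes and are given as a description. By edgeR's quasi-likelihood test, 1 of 133 members, Cldn1, had a 12-h component at an adjusted p under 0.05, beside 0.231% of 8216 genes. In Cldn1 the 12-h term had a peak-to-trough size of 1.05 (log2, adjusted p = 0.0145, edgeR) and was highest at CT6.02 and 12 h later, which lowers the fitted curve at CT0 and CT12 and gives the flat top and the narrow trough described for it. DESeq2 called 19 members, beside 1.74% of 8216 genes, among them Chka, Clpx, Hacl1 and Tubb2a. By edgeR the next in order were Rdh11 (adjusted p = 0.0510), Tubb2a (adjusted p = 0.0638), and Denn2b, Clpx and Asap2 (each adjusted p = 0.0785). At an unadjusted p under 0.05 there were 50 of the 133 members (8.36% of all genes tested), 11 of 55 day genes, 27 of 85 dusk genes and 22 of 58 night genes.

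Members were spread over the genome, with 131 placed on 20 chromosomes and at most 12 on a single chromosome. There were 9 neighbouring pairs with a gap under 200 kb. The closest pair was Mad2l2, a DNA repair and checkpoint gene (chr4:148140490-148145704, plus strand), and Fbxo6, a ubiquitin ligase subunit (chr4:148145716-148152135, minus strand), whose 3′ ends are 0.012 kb apart and whose phases were CT1.66 and CT2.39. Whether strand was used in counting is not given, so that reads near their shared end could be split between them. Zfp385a and Itga5 lie 4.20 kb apart with phases of CT23.25 and CT23.45. Gclc and Elovl5 lie 123 kb apart, and Fdps, Efna1 and Pmvk lie in that order on chromosome 3, with gaps of 170 and 179 kb.

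The limits cut through a continuous range. Just inside the R2 limit were Irf2bp2 (0.604), Arl4a (0.614) and Paqr9 (0.615), and just outside it Nt5m (0.599), Ablim1 (0.593) and Spsb3 (0.588). Just inside the size limit were Dhcr7 (1.00), Septin9 (1.01) and Pnrc2 (1.02), and just outside Tubb4b (0.996), Adra1b (0.995) and Acnat1 (0.993). At the early edge Lss (CT21.097), Acly (CT21.16) and Ddit4 (CT21.28) were in and Zbtb21 (CT20.96), Fkbp4 (CT20.81) and Acmsd (CT20.74) were out. At the late edge Amt (CT2.995), Gclc (CT2.90) and Mapk15 (CT2.80) were in and Gm4952 (CT3.12), Ubxn1 (CT3.24) and Pxdn (CT3.26) were out.

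Membership held under most settings. Of the 133 genes, 125 met the rule under all 3 of TMM, DESeq2 size factors and the upper quartile as scalings, and 83 met it whichever single library was left out. Without CT12 replicate 1, 1 of the 2 libraries of the trough, 103 did. Scaling by the total count with Mup reads gave 326 genes, 128 of them among the 133. The Mup share was 42.1% and 49.5% at CT0, 57.2% and 65.7% at CT4, 62.8% and 68.6% at CT8, 60.7% and 70.7% at CT12, 42.6% and 61.8% at CT16, 66.8% and 56.0% at CT20, and 52.5% and 55.5% at CT24. The total with Mup reads differs from the one used only in that it counts those reads.

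**Figure D5:**
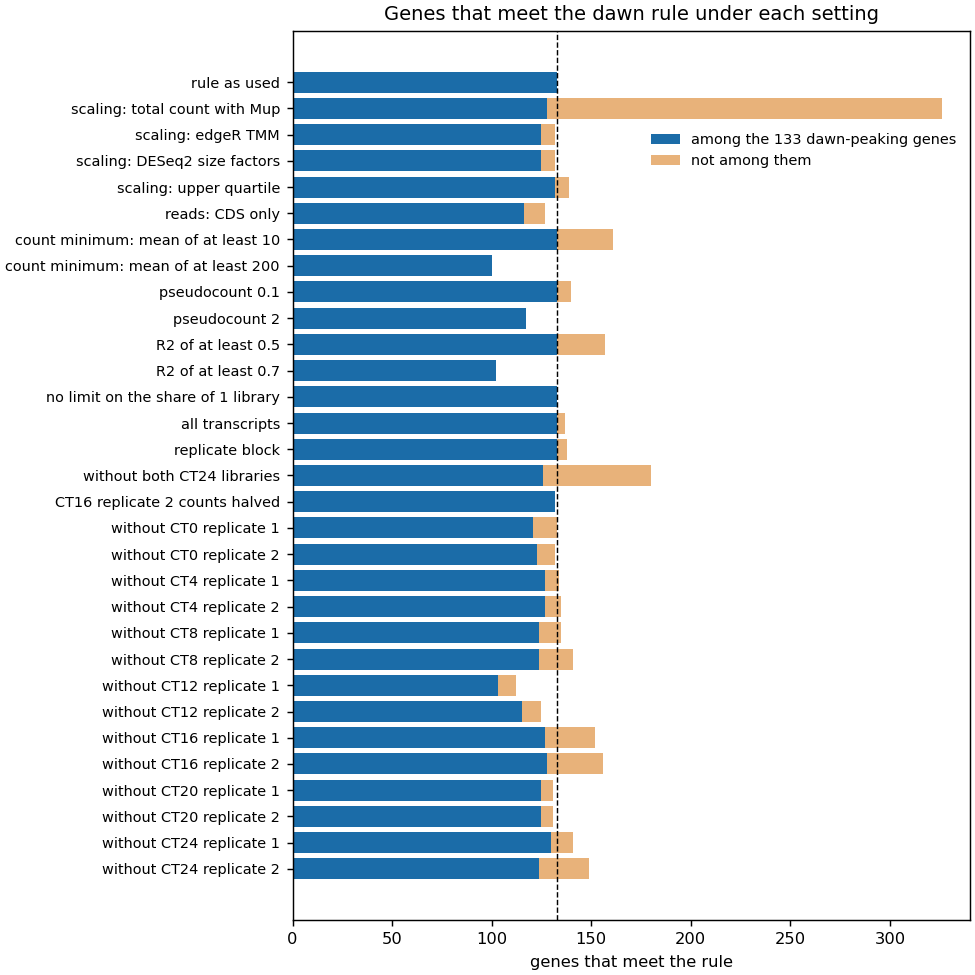
Number of genes that meet the rule (horizontal axis) under each setting, split into those among the 133 dawn-peaking genes (blue) and others (orange), with a dashed line at 133. The bar for scaling by the total count with Mup reads reaches 326, and leaving out CT12 replicate 1 keeps 103 of the 133.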

How the data were processed

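Ribosome-protected reads were measured in 14 libraries of mouse liver, 2 mice at each of 7 times. The authors trimmed adapter sequence, discarded ribosomal RNA, aligned what remained to mm10, retained perfect matches and placed each read at the ribosome's A site, as the methods describe. The submitters' processing notes name FastQC, Bowtie2 2.1.0.0 and SAMtools 0.1.19.0. The deposited values are read counts per transcript in the 5′UTR, the coding sequence and the 3′UTR, with no normalization by the authors. Only reads with a single place in the genome were kept. How such a read was assigned among overlapping transcripts, and whether strand was used, is not given in the sources used here. A second sequencing run listed for CT16 replicate 2 was not analysed here.

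The 3 regions were summed over 28167 transcripts. Genes with a mean of at least 100 counts were kept with the transcript of highest mean, and CPM used library totals without 21 Mup transcripts, which held 17090764 to 35532809 counts. These depths set the counting error of low genes, for which 3 reads were taken as the floor. The cosine was fitted by least squares, with CT24 as hour 24, in Python 3.11.15 (numpy 2.4.6, pandas 2.3.3). CT24 against CT0 and the 12-h component were tested with edgeR 4.0.16 (quasi-likelihood, TMM) on all 8216 genes and with DESeq2 1.42.0 as an alternative. The log2 ratio of 5′UTR to coding reads (pseudocount 0.5) was tested with limma 3.58.1 on 4732 genes with at least 10 mean reads in each region. P-values were adjusted by Benjamini-Hochberg over all genes tested, in R 4.3.3, and the code was tested on simulated data. They rest on 2 mice per time. Positions, uORFs and promoters were read from RefSeq on GRCm38.p6.

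The members, gene lists and roles were chosen with earlier results of these data known. The text names the 15 members with the widest swing, the 10 most abundant, those on the lists, those called by edgeR or limma, those with a RORE-like match and the 3 on each side of each limit. Further genes given as examples of a role were chosen after their values were seen. Alternatives were other scalings, count minimums, pseudocounts and R2 limits, coding reads alone, a replicate block, libraries left out, and CT16 replicate 2 with counts divided by 2. For the number of genes by the rule, the last of these was added after seeing the data. Some items on the lists are not reported here.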

Additional observations from a re-analysis of the deposited data

How the results depend on the processing

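The number of genes that met the rule stayed within 1.5 times of 133 under every alternative run except scaling by the total count with Mup reads, which gave 326 genes and a median peak-to-trough difference of 1.81 for the 133. Leaving out 1 library at a time gave 112 to 156 genes. Without both CT24 libraries there were 180, of which 126 were among the 133. The number of members with a 12-h component was 1 by edgeR (19 of all genes tested), 6 when scaled by the total without Mup (41 of all), 19 by DESeq2 (143) and 2 with coding reads alone (32). It was 1 to 3 when 1 library at a time was left out, beside 10 to 38 of all genes tested. It was 2 without CT8 replicate 1 or CT12 replicate 1, and 3 without CT8 replicate 2, CT16 replicate 2 or CT24 replicate 1. With the core hexamer AGGTCA in place of the longer letters, the share of promoters with a match was 15.1% (all genes tested 12.6%, day 7.14%, dusk 22.9%, night 28.9%), which is not compared because too few members had a promoter. For the peak-to-trough difference of 24 single genes, 137 of 168 alternatives moved it by less than the replicate spread, and of the 31 others 16 came from scaling with Mup reads and 14 from the pseudocount. The main fits did not include replicate number. Deviations of libraries with the same number correlated between times at r of -0.12 to 0.41. The median r was 0.084, and r was over 0.1 in 9 of 21 pairs of times. Whether replicate numbers share a batch is not known from this. A fit with the replicate block gave 138 genes by the rule, 3 members with a 12-h component (37 of all genes tested), and 0 members for CT24 against CT0 (7 of all genes tested) and for the ratio (0 of all). The depth limits genes below 10 CPM, whose troughs rest on few reads. Samples every 4 h limit how sharply a phase can be placed.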
